A study of Sus scrofa with 23 samples.

Results

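The genes described here are 59 of the 8603 genes in a table of transcript levels from pig preimplantation embryos, and they encode the parts with which embryonic cells hold on to each other and to a matrix. They were chosen by symbol and not by any measured value: every gene of the table whose symbol names a keratin, claudin, occludin, zonula occludens protein (TJP), classical cadherin, catenin (CTNN), EPCAM, protocadherin, desmosomal protein, connexin (GJ), integrin or laminin chain, with 1 further member of another role. By role, 13 are integrins, 11 belong to adherens junctions, 9 to tight junctions, 6 to desmosomes, 5 each are keratins, laminin chains and protocadherins, 4 are connexins and 1 has another role. Among the symbols of all named pig genes 181 fit the choice, of which the 59 in the table were analysed here. A symbol is a crude label, and CTNNBL1, ITGB1BP1, ITGBL1 and KRT222 share the first letters of a family without being its typical members.

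In a mammalian embryo the early blastomeres are loosely attached spheres. At compaction they flatten against each other through E-cadherin, the cadherin that the CDH1 gene encodes, whose inner part binds catenins and through them the actin skeleton. The outer cells then become the first epithelium, the trophectoderm, which seals its borders with tight junctions, fastens its keratin filaments at desmosomes, opens cell-to-cell channels built of connexins, and moves fluid inward so that the blastocyst cavity fills. The inner cell mass stays inside this epithelium, and integrins with laminins later tie cells to a basement membrane.

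Transcript levels were measured in 23 libraries from 3 kinds of embryo. The IV-D libraries were Duroc oocytes that had matured in 2-year-old sows, and embryos that had been fertilized by insemination and had developed in Duroc sows, whose age was not given in the sources used here, taken at the oocyte, 1-cell, 2-cell, 4-cell, 8-cell, morula and blastocyst stage. The NT-D and NT-LW libraries were clones made by somatic cell nuclear transfer, in which an oocyte without its own chromosomes receives a donor nucleus, here from ear fibroblasts of 1 Duroc boar (NT-D) or 1 Laiwu boar (NT-LW), both 1 year old. Blastocysts were cut by hand into a piece of pure trophectoderm (TE) and a remaining piece (IT) that held the inner cell mass together with trophectoderm, so that an IT library is no pure inner cell mass. The IV-D group has 8 libraries, NT-D has 8 with the in vitro matured recipient oocytes as its oocyte library, and NT-LW has 7, without an oocyte.

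These groups differ in more than the transfer of a nucleus. The same Duroc boar gave the NT-D donor cells and fathered all IV-D embryos, the recipient oocytes of both clone groups came from ovaries of hybrid sows collected at a slaughterhouse although the oocyte library carries a Duroc label, and the clones were cultured in vitro while IV-D embryos grew in the sow. The clones, from boar nuclei, were also all male, whereas an IV-D library pooled male and female embryos. Cloning, the origin of the oocyte, culture and embryo sex therefore cannot be told apart in any comparison of clones with IV-D embryos. In NT-LW the breed of the donor boar, Laiwu and not Duroc, is added to these and cannot be told apart from them either. Embryos of the same stage were pooled for a library, and each stage of each group has 1 library, so that no value below has a replicate behind it and no SD or p-value is given. In bulk samples of this kind, fewer cells of a type and less RNA per cell cannot be told apart.

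Levels are in FPKM, fragments scaled to the length of the transcript and to the mapped fragments of the library, which corrects for gene length and for depth. The values of all 8603 genes came out as whole fragments, with 14952784 to 22991067 mapped fragments behind a library. A level of 0 allows up to 3 fragments, which for a gene of 1 kb is 0.130 to 0.201 FPKM, and this limit covers counting error only. A gene is said to have risen or fallen (to be higher or lower) where its log2(FPKM + 1) in 2 libraries lay more than 1 apart and at least 1 library reached 1 FPKM, the cutoff for expression. Differences are on this log2(FPKM + 1) scale, which understates the change of weakly expressed genes, and each count of members is followed by the share of all genes of the table with 1 FPKM or more that rose or fell in the same 2 libraries. The table is labelled as one of differentially expressed genes, which the methods call between libraries by thresholds on adjusted p and fold change, but which comparisons fed the table was not given in the sources used here. These shares hold for the table and not for the whole transcriptome. Because the choice of TJP3, DSG3, CTNNA1, CTNNA3, CDH2, CDH7, ITGA6, ITGB6, LAMC1, PCDH8, PCDH17 and PCDH18 was made after their values were seen, they serve as examples only.

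Of the 59 members, 33 to 43 reached 1 FPKM in a library, and in all 23 libraries this share (55.9% to 72.9%) was below that of the whole table (68.9% to 89.9%). Together they took a small part of the summed FPKM of the table, which was larger in the morula and blastocyst than at the earlier stages. In IV-D embryos the part was 0.0949% in the oocyte, 0.109% at the 4-cell and 0.207% at the 8-cell stage, 0.325% in the morula, 0.499% in IT and 0.397% in TE. In NT-D embryos it was 0.117%, 0.0970%, 0.0682%, 0.368%, 0.372% and 0.512% in the same libraries, and in NT-LW embryos it was 0.0979% at the 4-cell stage, 0.0576%, 0.250%, 0.390% and 0.566%. The IV-D share was thus higher at the 8-cell stage than at the 4-cell stage, whereas in both clone groups it was lower at the 8-cell than at the 4-cell stage and higher in the morula. In TE the 5 keratins gave 1162 of 2516 member FPKM in IV-D, 1674 of 3205 in NT-D and 2634 of 3900 in NT-LW.

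Members split into genes whose highest level lay before the 8-cell stage and genes whose highest level lay from the 8-cell stage on. In IV-D embryos 22 members were early in this sense, with a highest level more than 1 log2 unit above the later one, 26 were late, 10 were in between and 1 never reached 1 FPKM. The early share of 37.3% stood beside 31.0% for the whole table, and the late share of 44.1% beside 37.0%. In NT-D embryos 21 were early and 23 late (35.6% and 39.0%, beside 27.8% and 37.1% of the table). In NT-LW embryos 21 were early and 20 late (35.6% and 33.9%, beside 30.2% and 36.2%). For 40 members the class was shared by all 3 groups, 18 of them early, 18 late and 4 in between. How often a class was shared over the whole table was not calculated, so this count cannot be read as particular to the members. The early class held the cadherin CDH7, the integrin subunits ITGA2 and ITGA4, the connexins GJC1 and GJA10, CLDN10 and LAMB1, and the late class held the keratins KRT8, KRT10 and KRT18, the desmosomal genes DSC2, DSG2 and PKP2, 3 claudins (CLDN4, CLDN6 and CLDN8), the connexin GJB5, and ITGB1.

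**Figure D1:**
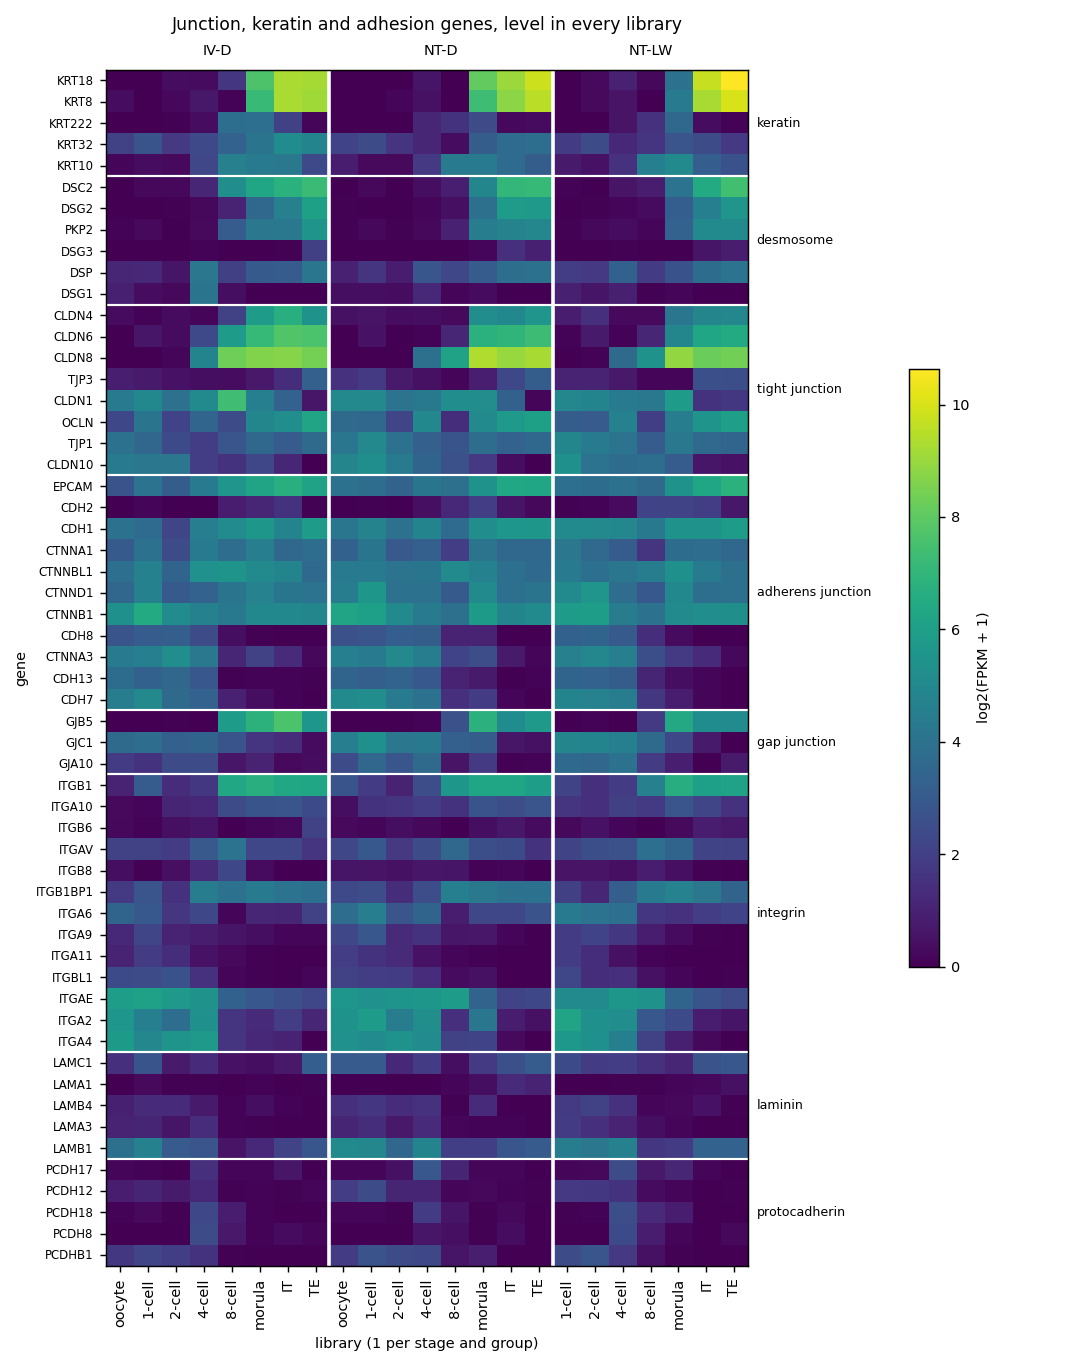
Level of 56 of the genes, as log2(FPKM + 1) in colour from dark (low) to bright (high), in each of the 23 libraries (columns, by embryo group and stage), with the genes in rows by 8 roles. Rows bright in oocytes and cleavage stages and rows bright from the 8-cell stage or morula on stand side by side in several roles. The 8-cell columns of both clone groups are dark in many late rows that are brighter in the IV-D 8-cell column, for example CLDN6 with 57.9 FPKM in IV-D and 1.18 and 1.23 FPKM in NT-D and NT-LW.

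Keratins form the intermediate filaments of epithelial cells as pairs of a type I and a type II chain. KRT8 (ENSSSCG00000000252, chr5:18172423-18180277) and KRT18 (ENSSSCG00000000253, chr5:18217686-18221432) are the pair of simple epithelia and lie next to each other, 37408 bases apart, on opposite strands. Because they moved together, the 250 bases before the RefSeq start of each gene (Sscrofa11.1) are shown, chr5:18180278-18180527 on the minus strand and chr5:18217436-18217685 on the plus strand, 5′ to 3′, with matches to searched motifs in capitals.
KRT8: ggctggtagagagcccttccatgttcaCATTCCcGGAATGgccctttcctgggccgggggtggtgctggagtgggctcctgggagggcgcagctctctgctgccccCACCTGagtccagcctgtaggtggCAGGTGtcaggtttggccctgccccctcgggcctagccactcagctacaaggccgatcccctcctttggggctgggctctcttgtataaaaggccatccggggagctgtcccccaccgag
KRT18: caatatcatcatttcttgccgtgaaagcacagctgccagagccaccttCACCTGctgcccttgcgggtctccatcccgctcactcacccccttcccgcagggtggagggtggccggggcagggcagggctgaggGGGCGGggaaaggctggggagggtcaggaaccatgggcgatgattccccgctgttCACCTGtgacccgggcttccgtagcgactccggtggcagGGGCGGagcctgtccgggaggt
Searched on both strands were the AP-2 motif GCCNNNGGC, the TEAD motif GGAATG, the GATA motif AGATAA, the SP/KLF motif GGGCGG, the AP-1 motif TGANTCA and the E-box CAGGTG that SNAI factors bind, none of which overlapped another in these windows. The KRT8 window held 2 TEAD motifs and 2 E-boxes and the KRT18 window held 2 SP/KLF motifs and 2 E-boxes. Of 19519 promoter windows of this length, 21.97% held the AP-2 motif, 10.3% the TEAD motif, 8.09% the GATA motif, 45.9% the SP/KLF motif, 5.24% the AP-1 motif and 19.5% the E-box. Of the 57 members with a window, 13, 6, 5, 28, 2 and 15 held them in this order. These are matches of letters and were not tested for binding.

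Values are given from here on in the order oocyte, 1-cell, 2-cell, 4-cell, 8-cell, morula, IT and TE, for NT-LW without the oocyte. KRT8 measured 0.271, 0, 0.167, 0.607, 0.0803, 142, 626 and 549 FPKM in IV-D embryos. In NT-D embryos KRT8 measured 0, 0.0170, 0.0911, 0.402, 0, 161, 441 and 735 FPKM. In NT-LW embryos KRT8 measured 0, 0.190, 0.459, 0, 19.8, 599.7 and 1033 FPKM. KRT8 was thus near or at 0 in all 3 groups up to the 8-cell stage and abundant from the morula on, with a low morula value in NT-LW. KRT18 followed with 0, 0, 0.295, 0.235, 2.21, 199.9, 627 and 582 FPKM in IV-D embryos. The NT-D libraries gave 0, 0, 0, 0.519, 0, 269, 532 and 917 FPKM and the NT-LW libraries 0.0166, 0.201, 0.956, 0.187, 14.5, 834 and 1593 FPKM. At the 8-cell stage KRT18 had passed 1 FPKM in IV-D embryos and not in either clone group.

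The pair kept a near-even ratio once it was expressed. KRT18 divided by KRT8, both in FPKM, was 1.40 in the IV-D morula, 1.002 in IT and 1.06 in TE. In NT-D the ratio was 1.67, 1.21 and 1.25, and in NT-LW 0.730, 1.39 and 1.54. The NT-LW morula was the only one of these 9 libraries in which KRT8 stood above KRT18.

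The other 3 keratins had their own courses. KRT10, a keratin best known from differentiated epidermis, measured 0.134, 0.275, 0.199, 3.86, 24.0, 19.8, 18.2 and 4.05 FPKM in IV-D embryos, 0.754, 0.212, 0.189, 2.40, 19.6, 19.3, 12.3 and 7.92 FPKM in NT-D and 0.700, 0.423, 1.88, 23.2, 33.4, 7.95 and 5.44 FPKM in NT-LW. It rose between the 4-cell and 8-cell stage in all 3 groups, and its IV-D and NT-D maximum lay at the 8-cell stage. KRT222 (chr12:21768053-21778893), a keratin-related gene, was at 13.2 and 13.7 FPKM in the IV-D 8-cell embryo and morula and at 0.0939 FPKM in TE. KRT32 (chr12:21176984-21185014), a type I hair keratin, was already at 3.24 FPKM in the IV-D oocyte and reached 34.9 FPKM in IT and 26.9 FPKM in TE, against 12.3 and 13.3 FPKM in NT-D and 4.42 and 2.41 FPKM in NT-LW. The 5 keratins summed to 48.8 FPKM in the IV-D 8-cell embryo and to 21.8 and 27.3 FPKM in the NT-D and NT-LW 8-cell embryos, of which KRT10 made up most in the clones.

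Desmosomes bridge neighbouring cells through 2 kinds of cadherin, desmocollins and desmogleins, and anchor keratin filaments inside through desmoplakin and plakophilins. The desmocollin DSC2 (ENSSSCG00000024800, chr6:114982259-115021332) measured 0.0227, 0.161, 0.169, 1.22, 36.3, 75.1, 110.3 and 149 FPKM in IV-D embryos. In NT-D embryos it measured 0.0133, 0.180, 0, 0.307, 0.843, 28.4, 133 and 137 FPKM and in NT-LW embryos 0.0713, 0.0240, 0.482, 0.831, 15.4, 90.4 and 172 FPKM. DSC2 was under 1 FPKM in both clone 8-cell libraries and at 36.3 FPKM in the IV-D one, and by TE the 3 groups lay between 137 and 172 FPKM.

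The desmoglein DSG2 (ENSSSCG00000022739, chr6:115400223-115453763), the other kind of cadherin in the bridge, came later, with 0.0215, 0, 0.0399, 0.188, 1.09, 11.2, 24.2 and 66.0 FPKM in IV-D, 0.0504, 0, 0.0127, 0.137, 0.357, 14.3, 58.0 and 52.8 FPKM in NT-D and 0.0224, 0.0340, 0.108, 0.252, 8.06, 23.5 and 46.1 FPKM in NT-LW. It stayed near or under 1 FPKM at the 8-cell stage in all 3 groups. The ratio of DSC2 to DSG2 in IV-D was 33.2 at the 8-cell stage, 6.68 in the morula, 4.56 in IT and 2.26 in TE. In the cloned morulae it was 1.99 (NT-D) and 1.91 (NT-LW). In IT and TE it was 2.29 and 2.60 in NT-D, and 3.85 and 3.72 in NT-LW. The desmocollin thus ran ahead of the desmoglein in IV-D embryos, and by a smaller ratio in the cloned morulae, whereas in TE both clone ratios lay above the IV-D ratio.

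The plaque genes differed from each other. PKP2, a plakophilin (chr5:41424687-41509590), measured 0.0759, 0.195, 0, 0.217, 7.67, 17.5, 18.1 and 44.4 FPKM in IV-D embryos, 0.0555, 0.188, 0.0335, 0.175, 0.954, 21.3, 26.1 and 29.4 FPKM in NT-D and 0.0495, 0.160, 0.285, 0.136, 9.19, 32.1 and 33.1 FPKM in NT-LW, a course like that of DSC2. DSP, desmoplakin (chr7:4862649-4915626), was present from the oocyte on, with 1.22, 1.31, 0.501, 17.5, 3.06, 7.10, 7.55 and 17.0 FPKM in IV-D and a 4-cell value as high as that of TE. In NT-D and NT-LW the 4-cell value of DSP was 6.14 and 8.75 FPKM and the TE value 14.6 and 15.4 FPKM. DSG1 (chr6:115237836-115272944), a desmoglein of stratified skin, was at 16.3 FPKM in the IV-D 4-cell embryo and at 1 FPKM or less in the other 7 IV-D libraries. Its clone 4-cell values were 1.25 (NT-D) and 0.905 FPKM (NT-LW). DSG3 lies between DSG1 and DSG2 on chromosome 6, 16472 bases from DSG2, and appeared in blastocyst libraries, at 0.0322 FPKM in IV-D IT and 3.04 FPKM in TE, 1.69 and 0.911 FPKM in NT-D, and 0.538 and 0.770 FPKM in NT-LW.

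Tight junctions seal an epithelium with claudins, which span the membrane and set what may leak between cells, with occludin, and with TJP scaffold proteins underneath. CLDN8 (ENSSSCG00000012030, chr13:193563314-193564090) was the most abundant claudin of the table. It measured 0, 0, 0.112, 26.9, 308, 398, 418 and 341 FPKM in IV-D embryos. The NT-D embryos gave 0, 0, 0, 14.0, 69.8, 657, 507 and 604 FPKM. The NT-LW embryos gave 0, 0.0635, 11.7, 41.9, 482, 293 and 332 FPKM. It was silent or nearly so through the 2-cell stage and present at the 4-cell stage in every group, and the IV-D 8-cell value stood above those of both clone groups, whereas the NT-D and NT-LW morulae stood above the IV-D morula.

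CLDN6 (ENSSSCG00000023743, chr3:39168506-39172631) is a claudin of embryonic epithelia. It measured 0, 0.565, 0.233, 4.06, 57.9, 138, 215 and 194 FPKM in IV-D embryos, 0, 0.415, 0, 0.0892, 1.18, 109, 125 and 156 FPKM in NT-D and 0.0656, 0.728, 0.0700, 1.23, 28.7, 75.7 and 90.6 FPKM in NT-LW. Only the IV-D series passed 2 FPKM before the morula, and from the morula on every NT-LW value was below the NT-D value, which was below the IV-D value. CLDN4 (chr3:11039711-11053930) measured 0.241, 0.0689, 0.249, 0.108, 3.26, 57.0, 105 and 42.6 FPKM in IV-D, 0.408, 0.496, 0.284, 0.304, 0.207, 36.2, 30.5 and 45.2 FPKM in NT-D and 0.756, 1.72, 0.209, 0.210, 17.1, 27.6 and 29.8 FPKM in NT-LW. Its highest value of all 23 libraries was that of IV-D IT.

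CLDN1 and CLDN10 ran the other way in part. CLDN1 (ENSSSCG00000040904, chr13:127714857-127730628), a claudin of many sealing epithelia, measured 20.5, 30.6, 14.7, 32.8, 163, 23.3, 9.06 and 0.548 FPKM in IV-D, 31.0, 30.8, 15.4, 18.5, 35.9, 36.1, 8.91 and 0.0934 FPKM in NT-D and 29.5, 26.5, 19.4, 18.4, 57.0, 1.93 and 2.35 FPKM in NT-LW. It was present from the oocyte on and peaked at the 8-cell stage in IV-D embryos and in the morula in NT-LW. In NT-D the 8-cell and morula values were nearly the same (35.9 and 36.1 FPKM). The 3 TE libraries had 0.548, 0.0934 and 2.35 FPKM. CLDN10 (chr11:65027706-65145002) fell from 20.8 FPKM in the IV-D oocyte and 27.5 FPKM in the recipient oocytes to 0 in IV-D and NT-D TE and 0.424 FPKM in NT-LW TE. At the 8-cell stage it was at 1.96 FPKM in IV-D, 5.15 FPKM in NT-D and 13.5 FPKM in NT-LW.

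OCLN, occludin (chr16:47600175-47652435), measured 3.96, 16.0, 3.47, 9.99, 4.58, 28.4, 35.7 and 72.5 FPKM in IV-D, 11.98, 10.98, 3.72, 30.6, 1.64, 32.6, 53.1 and 64.8 FPKM in NT-D and 7.77, 7.29, 24.6, 2.96, 22.1, 44.7 and 62.7 FPKM in NT-LW. Each group had its lowest late value at the 8-cell stage and its highest value in TE. TJP1, the scaffold that ties these proteins to actin, was present throughout, at 2.83 to 15.0 FPKM in IV-D, 5.88 to 31.1 FPKM in NT-D and 7.49 to 28.7 FPKM in NT-LW. Its relative TJP3 was at 1.61 FPKM in IV-D IT and 8.50 FPKM in TE. The 9 tight junction genes summed to 564 FPKM in the IV-D 8-cell embryo, 125 FPKM in NT-D and 89.2 FPKM in NT-LW.

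Adherens junctions hold cells by cadherins. CDH1 (ENSSSCG00000025652, chr6:18075487-18155986), E-cadherin, on which compaction depends, measured 15.2, 12.3, 3.61, 22.6, 33.9, 48.3, 27.2 and 56.5 FPKM in IV-D embryos. In NT-D it measured 17.0, 26.2, 15.3, 27.2, 12.1, 35.7, 47.4 and 48.3 FPKM and in NT-LW 32.6, 31.1, 29.8, 18.6, 43.7, 43.3 and 58.0 FPKM. CDH1 reached 1 FPKM in all 23 libraries, with its lowest value in the IV-D 2-cell embryo, and at the 8-cell stage both clone values were below the IV-D value. EPCAM (chr3:93169800-93185221), an adhesion protein of epithelia that is not a cadherin, measured 5.76, 15.7, 7.70, 20.05, 45.3, 72.9, 105 and 68.8 FPKM in IV-D, 14.7, 12.8, 9.56, 16.4, 14.2, 41.8, 81.7 and 78.1 FPKM in NT-D and 13.7, 12.6, 15.1, 11.9, 42.8, 75.4 and 109 FPKM in NT-LW. Both clone 8-cell values were again below the IV-D one, and by the blastocyst the 6 values lay between 68.8 and 109 FPKM.

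Of the catenin genes, CTNNA3 was early in all 3 groups and CTNNB1 in IV-D embryos, while CTNNA1, CTNND1 and CTNNBL1 were in between in all 3. CTNNB1, β-catenin, which binds the tail of E-cadherin and also carries Wnt signals, was highest in the IV-D 1-cell embryo with 90.2 FPKM and lowest in all 3 groups at the 8-cell stage, with 18.7, 14.3 and 15.2 FPKM in IV-D, NT-D and NT-LW. CTNND1, the catenin that steadies cadherins at the membrane, was at 16.0, 7.07 and 6.53 FPKM at the 8-cell stage and 25.5, 32.2 and 30.1 FPKM in the morula. CTNNA1, the α-catenin that links the complex to actin, was at 12.9, 2.84 and 2.12 FPKM at the 8-cell stage and 22.1, 16.1 and 12.5 FPKM in the morula. CDH7, a cadherin better known from the nervous system, measured 21.3, 30.7, 11.8, 9.07, 0.965, 0.297, 0.0667 and 0.0288 FPKM in IV-D embryos, and so left the embryo as the epithelial genes came up. Its clone values were 14.5 and 20.9 FPKM at the 4-cell stage and 1.79 and 2.32 FPKM at the 8-cell stage, in NT-D and NT-LW.

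Connexins form the channels of gap junctions. GJB5 (ENSSSCG00000003585, chr6:90999514-91003301) came up at the 8-cell stage, before the keratin pair, so the 250 bases before its start are shown as for the keratins, chr6:90999264-90999513 on the plus strand, with matches to the same motifs in capitals.
GJB5: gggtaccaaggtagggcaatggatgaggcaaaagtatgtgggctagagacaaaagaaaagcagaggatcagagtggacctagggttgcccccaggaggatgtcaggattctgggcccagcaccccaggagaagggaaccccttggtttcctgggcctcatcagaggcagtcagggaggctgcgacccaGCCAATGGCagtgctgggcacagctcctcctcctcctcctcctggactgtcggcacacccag
The GJB5 window held 1 AP-2 motif and none of the others. The shares of all promoter windows that hold these motifs are those given with the keratins.

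GJB5 measured 0, 0, 0.0529, 0, 57.5, 114, 196 and 47.7 FPKM in IV-D embryos. The NT-D embryos had 0, 0, 0, 0.0810, 5.23, 114, 35.0 and 50.8 FPKM and the NT-LW embryos 0, 0.0600, 0, 2.45, 84.8, 34.7 and 34.5 FPKM. It was near or at 0 through the 4-cell stage in every group, and it was higher in the IV-D 8-cell embryo than in either clone. In IV-D blastocysts IT stood far above TE, while the IT and TE values of each clone group were close to each other and nearer to IV-D TE than to IV-D IT.

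The connexins GJC1 and GJA10 belonged to the oocyte and cleavage stages. GJC1 measured 11.8, 13.1, 8.68, 9.88, 5.87, 2.09, 1.58 and 0.245 FPKM in IV-D, 22.5, 39.7, 17.8, 18.9, 8.67, 7.88, 0.569 and 0.401 FPKM in NT-D and 27.9, 26.6, 22.8, 11.96, 3.97, 0.691 and 0.0244 FPKM in NT-LW. GJA10 was at 4.49, 11.7 and 14.8 FPKM at the 4-cell stage and at 0.558, 0.470 and 2.58 FPKM at the 8-cell stage in IV-D, NT-D and NT-LW. In all 3 groups GJB5 thus stood below GJC1 and GJA10 at the 4-cell stage and above both in the morula. The NT-D morula still held 7.88 FPKM of GJC1, and GJA10 was higher there (2.49 FPKM) than in the NT-D 8-cell embryo.

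Integrins are receptors of an α and a β subunit that bind matrix proteins and, in some cases, other cells. ITGB1 (ENSSSCG00000011101, chr10:56078393-56130608), the β subunit shared by most of them, measured 1.11, 7.57, 1.54, 2.30, 79.6, 104, 80.3 and 78.6 FPKM in IV-D embryos. In NT-D it measured 5.79, 2.65, 1.03, 4.70, 48.8, 74.9, 76.2 and 61.7 FPKM and in NT-LW 3.50, 1.67, 2.63, 23.7, 97.1, 64.1 and 68.4 FPKM. ITGB1 was low before the 8-cell stage and high from then on in every group, with the NT-LW 8-cell value the lowest of the 3.

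ITGAE (ENSSSCG00000017869, chr12:49810050-49878142), an α subunit whose known ligand is E-cadherin, ran in the opposite direction. It measured 61.4, 66.8, 52.1, 43.4, 8.93, 6.36, 4.98 and 3.78 FPKM in IV-D embryos, 47.4, 40.4, 44.4, 47.9, 55.8, 9.41, 3.55 and 4.01 FPKM in NT-D and 33.2, 33.5, 48.0, 42.2, 9.79, 5.70 and 4.47 FPKM in NT-LW. The IV-D level fell between the 4-cell and 8-cell stage, whereas both clone groups held their 4-cell level at the 8-cell stage and had a lower level in the morula. ITGA2, a collagen receptor subunit, measured 47.3, 23.3, 13.6, 39.1, 2.02, 1.49, 2.81 and 1.19 FPKM in IV-D, 41.6, 56.0, 21.8, 37.5, 1.82, 17.3, 0.734 and 0.399 FPKM in NT-D and 73.3, 39.0, 36.5, 6.43, 4.30, 0.802 and 0.528 FPKM in NT-LW. ITGA4, an α subunit that binds fibronectin, measured 54.6, 29.5, 44.1, 51.3, 2.02, 1.27, 1.08 and 0 FPKM in IV-D, 40.2, 33.7, 43.7, 33.8, 3.12, 3.47, 0.207 and 0 FPKM in NT-D and 50.6, 39.0, 23.4, 3.29, 0.911, 0.165 and 0.00958 FPKM in NT-LW. Both subunits were abundant through the 4-cell stage and at 7 FPKM or less at the 8-cell stage in every group, and the NT-D morula alone stood out with 17.3 FPKM of ITGA2. ITGAV, an α subunit of vitronectin receptors, had its highest value of each group at the 8-cell stage, with 15.8, 11.02 and 13.6 FPKM. ITGB1BP1, a protein that binds the tail of the β subunit, was at 21.9 FPKM in the IV-D 4-cell embryo against 4.63 and 8.44 FPKM in the clones.

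Laminins are matrix proteins of 3 chains. LAMB1, a β chain, measured 14.0, 24.7, 7.36, 6.06, 0.462, 1.30, 3.51 and 6.22 FPKM in IV-D, 31.9, 29.1, 10.51, 27.1, 2.94, 2.88, 6.17 and 7.25 FPKM in NT-D and 20.9, 17.5, 24.6, 2.23, 2.67, 9.29 and 9.05 FPKM in NT-LW. It was lowest at the 8-cell stage or, in NT-D, in the morula, and was at 6.22 to 9.05 FPKM in TE. LAMC1, the γ chain that pairs with it, was at 0.642 FPKM in IV-D IT and 8.15 FPKM in TE, at 4.97 and 7.57 FPKM in NT-D and at 5.63 and 6.48 FPKM in NT-LW. The α chain genes of the table, LAMA1 and LAMA3, stayed under 3 FPKM in all 23 libraries.

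The 5 protocadherins, large cadherin relatives best known from the nervous system, stayed under 7 FPKM in all libraries. PCDH8, PCDH17 and PCDH18 were at 4.52, 1.76 and 3.98 FPKM in the IV-D 4-cell embryo, 0.543, 6.45 and 2.66 FPKM in NT-D and 4.25, 4.50 and 4.84 FPKM in NT-LW, their highest value in each group.

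**Figure D2:**
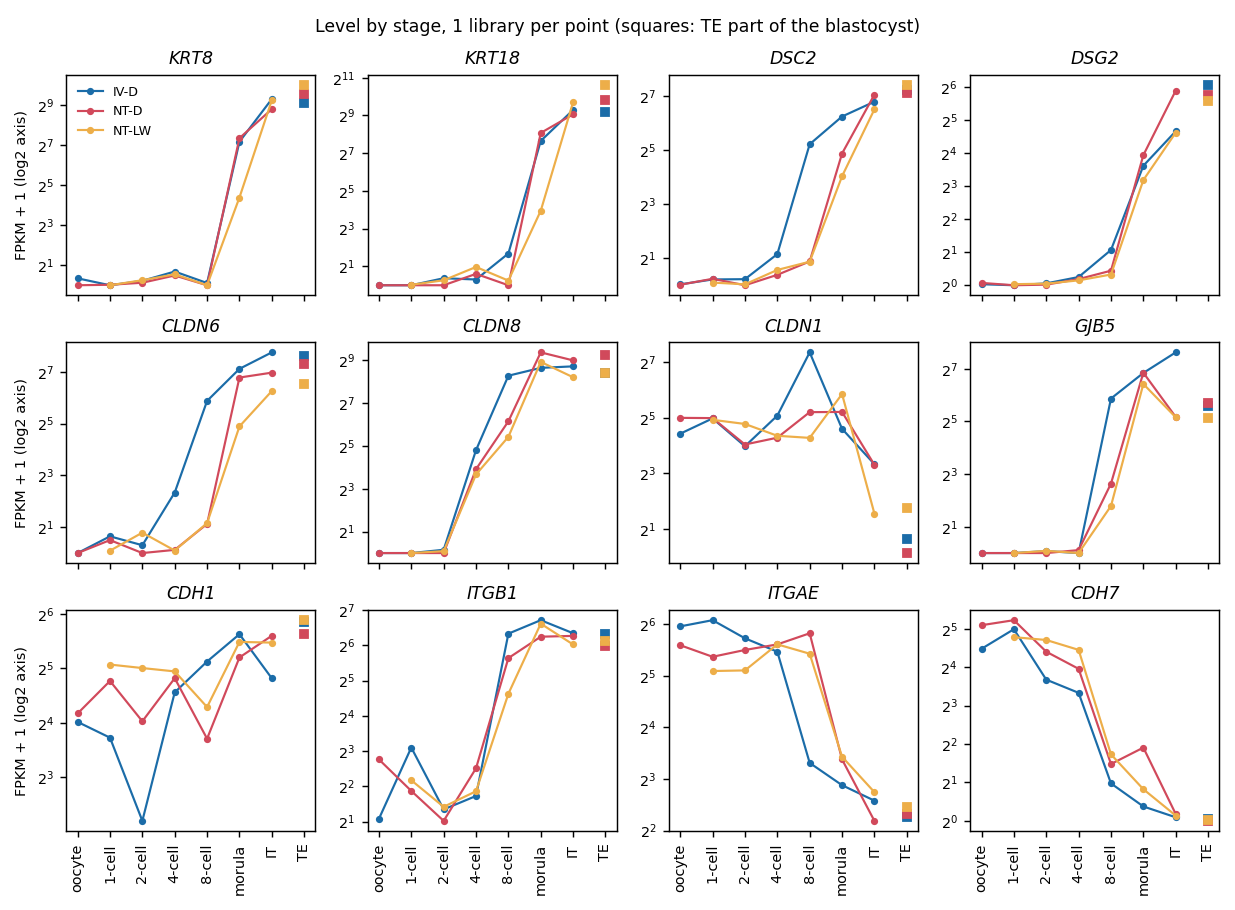
Level of 12 genes by stage on a log2 axis of FPKM + 1, with a line for each embryo group and the TE values as squares beside the line that ends in IT. KRT8 and KRT18 stay low to the 8-cell stage and then climb, DSC2, CLDN6, CLDN8, GJB5 and ITGB1 climb at the 8-cell stage with the IV-D line above the clone lines, and ITGAE and CDH7 descend, ITGAE later in the clones.

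In IV-D embryos the counts at the first steps turned on the scaling. From oocyte to 1-cell embryo 7 of 36 members with 1 FPKM or more rose and 0 fell, beside 13.7% and 7.64% of the table, and CTNNB1 rose by 1.16 and OCLN by 1.78 on the log2 scale. Median-ratio scaling, which brings the median ratio between libraries to a common level, turned this count into 5 higher and 2 lower and ended the call of CTNNB1, and scaling each library to the same sum into 8 and 2. From 1-cell to 2-cell 0 of 37 rose and 17 fell, beside 6.59% and 24.6%, and after median-ratio scaling 4 rose and 8 fell. CTNNB1 fell by 1.40, which was lost after median-ratio scaling. From 2-cell to 4-cell 18 of 46 rose and 2 fell, beside 34.4% and 12.3%, and after median-ratio scaling 12 rose and 12 fell. CLDN8 rose by 4.65, DSG1 by 3.90 and DSP by 3.62. The IV-D 1-cell library also held fibroblast markers at 71.7 summed FPKM, against 5.32 in the IV-D oocyte and 5.12 in the 2-cell embryo, and their part in the first 2 steps was not tested.

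The step from 4-cell to 8-cell, around which the pig embryo is known to take up transcription of its own genes, changed most members. Of 50 members 18 rose and 19 fell, beside 35% and 28.1% of the table, with a median difference of -0.43 for the members and 0.25 for the table. Neither scaling moved this split by more than 10 points, but with a minimum of 5 FPKM in place of 1 it was 14 rises and 9 falls. All 4 keratins with 1 FPKM or more rose, as did 5 of 8 tight junction genes, 2 of 5 desmosomal genes and 2 of 4 connexins, while all 5 protocadherins, 4 of 10 adherens junction genes and 5 of 10 integrins fell. Large rises were those of GJB5 (at least 249.7-fold higher, from no fragment at the 4-cell stage), ITGB1 (4.61), DSC2 (4.07), CLDN6 (3.54), CLDN8 (3.47) and KRT222 (3.47), in log2 units. PKP2 rose by 2.83, KRT10 by 2.37, CLDN1 by 2.28, CLDN4 by 1.94 and KRT18 by 1.38. Falls were led by ITGA4 (-4.11), DSG1 (-3.73) and ITGA2 (-3.73), followed by LAMB1 (-2.27), DSP (-2.19), ITGAE (-2.16) and GJA10 (-1.82). EPCAM (1.14), ITGAV (1.11) and KRT32 (1.02) rose too, but not after median-ratio scaling.

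From 8-cell embryo to morula the keratin pair and the late desmosomal genes followed. Of 40 members 10 rose and 4 fell, beside 12.3% and 13.6% of the table, with medians of 0.66 and -0.03. KRT8 rose by 7.05 and KRT18 by 5.97, CLDN4 by 3.77, DSG2 by 2.55 and OCLN by 2.40. CLDN6 (1.24) and PKP2 (1.09) rose by less, and DSC2 rose by 1.03, which did not hold after scaling to a common sum. CLDN1 fell by 2.75, ITGAV by 1.79 and GJC1 by 1.16.

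From morula to blastocyst IT and TE parted. In IV-D IT 4 of 40 members rose and 4 fell against the morula, beside 7.7% and 7.59% of the table, with 7 and 2 after median-ratio scaling and 4 and 7 after scaling to a common sum. In IV-D TE 11 of 43 rose and 12 fell, beside 12% and 24.6%, with 14 and 8 after median-ratio scaling. In TE 4 of 5 desmosomal genes rose (DSG2 2.45, PKP2 1.30, DSP 1.16, and DSG3, which had no fragment in the morula, at least 137-fold higher). KRT8 (1.94), KRT18 (1.54), OCLN (1.32), LAMB1 (1.65), LAMC1 (2.80) and TJP3 (2.53) rose with them. CLDN1 (-3.97), KRT222 (-3.74) and KRT10 (-2.04) fell, and CLDN10, with no fragment in TE, was at least 20.6-fold lower. GJB5 (-1.24) fell too, but not after median-ratio scaling.

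In the clones the step to the 8-cell stage held about as many falls as in vivo and fewer rises, and many rises came at the morula. From 4-cell to 8-cell 8 of 46 members rose and 21 fell in NT-D, beside 31.4% and 28.7% of the table, and 9 of 46 rose and 19 fell in NT-LW, beside 28.1% and 25.6% (6 and 23 after median-ratio scaling). The members that rose in NT-D included ITGB1 (3.13), KRT10 (2.60) and CLDN8 (2.23). In NT-LW these differed by 2.77, 3.07 and 1.75. From 8-cell to morula 26 of 45 members rose and 2 fell in NT-D, beside 31.6% and 12%, with medians of 1.25 for members and 0.45 for the table. In NT-LW 24 of 45 rose and 4 fell, beside 22.4% and 12.4%, with medians of 1.03 and 0.19. The rises from 8-cell to morula in NT-D included CLDN6 (5.66), DSC2 (3.997), GJB5 (4.21) and PKP2 (3.51), in NT-LW 3.74, 3.16, 4.64 and 3.16 in this order. KRT8, with no fragment in either clone 8-cell library, was at least 3765-fold higher in the NT-D morula and at least 393-fold higher in the NT-LW morula, and ITGAE fell from 55.8 to 9.41 FPKM in NT-D and from 42.2 to 9.79 FPKM in NT-LW.

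At the clone blastocyst the counts over the members turned on the scaling. Against the morula 5 of 46 members rose and 16 fell in NT-D IT, beside 9.31% and 35.1% of the table, and 7 of 45 rose and 17 fell in NT-D TE, beside 8.66% and 38.5%. In NT-LW 10 of 40 rose and 11 fell in IT, beside 9.1% and 28.1%, and 13 of 40 rose and 17 fell in TE, beside 8.79% and 40.3%. After median-ratio scaling the counts were 13 and 11 in NT-D IT, 16 and 11 in NT-D TE, 14 and 6 in NT-LW IT and 17 and 7 in NT-LW TE, and after scaling to a common sum 9 and 16 in NT-LW IT. DSG2 rose in all 4 (by 1.95 and 1.82 in NT-D and 1.43 and 2.38 in NT-LW), and CLDN1 fell in all 4 (by 1.90, 5.08, 4.31 and 4.11). KRT8 and KRT18 rose by 5.64 and 6.69 from the NT-LW morula to TE.

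The comparison of clones with IV-D embryos of the same stage takes cloning, the origin of the oocyte, culture and embryo sex together, and for NT-LW also the breed. NT-D and NT-LW share the IV-D libraries as their reference, so the values of both stand side by side and an overlap between them is no separate result. At the 2-cell stage 3 of 35 members were higher and 0 lower in NT-D, beside 6.48% and 1.9% of the table (2 and 1 after median-ratio scaling). In NT-LW 16 of 39 were higher and 1 lower, beside 34.7% and 3.51%, and median-ratio scaling turned this into 5 and 7. CDH1 was higher in both, by 1.82 and 2.80, and so was TJP1, by 1.60 and 1.99.

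At the 4-cell stage 8 of 46 members were higher and 8 lower in NT-D, beside 9.74% and 13.2%, and 9 of 45 were higher and 8 lower in NT-LW, beside 10.8% and 9.43%. Higher in NT-D and NT-LW were the scaffold TJP1 (1.34 and 2.12), LAMB1 (1.99 and 1.86), OCLN (1.53 and 1.22), CLDN10 (1.47 and 1.81) and GJA10 (1.21 and 1.52). Lower were DSG1 (-2.94 and -3.18) and ITGB1BP1 (-2.03 and -1.28). DSP was lower in NT-D (-1.37) and differed by -0.92 in NT-LW, and CLDN8 was lower in NT-LW (-1.13) and differed by -0.89 in NT-D.

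At the 8-cell stage lower members prevailed. In NT-D 19 of 41 members were lower and 3 higher, beside 17.4% and 10.8% of the table, with a median of -0.69 for the members and -0.12 for the table. In NT-LW 17 of 44 were lower and 9 higher, beside 17.3% and 16.3%, with medians of -0.59 and -0.02. Scaling moved neither split by more than 10 points. With a minimum of 5 FPKM, NT-LW had 14 lower and 3 higher, and with a pseudocount of 0.1, NT-D had 21 lower and 7 higher. By role, 6 of 8 tight junction genes were lower in NT-D and 5 of 8 in NT-LW, with 1 higher in each, 3 of 4 keratins and 2 of 4 desmosomal genes were lower in both, and connexins were lower in 2 of 3 and 2 of 4. Of 11 adherens junction genes 4 were lower and none higher in NT-D, and 3 were lower and 3 higher in NT-LW. Integrins were lower in 1 of 8 and higher in 1 in NT-D, and lower in 2 of 9 and higher in 3 in NT-LW.

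Large 8-cell differences belonged to seal, bridge and channel genes. CLDN6 differed by -4.76 in NT-D and -4.72 in NT-LW, DSC2 by -4.34 and -4.35, and GJB5 by -3.23 and -4.08. CLDN1 (-2.15 and -3.08), CLDN8 (-2.13 and -2.85), CLDN4 (-1.82 and -1.81) and PKP2 (-2.15 and -2.93) were lower in both. Among keratins KRT222 (-2.29 and -2.32) and KRT32 (-3.00 and -1.74) were lower in both, KRT18 was at least 41.9-fold lower in NT-D, where it had no fragment, and -1.44 in NT-LW, and KRT10 differed by -0.28 and -0.05. The adherens genes EPCAM (-1.61 and -1.84) and CTNNA1 (-1.86 and -2.16) were lower in both, whereas CDH1 was lower in NT-D (-1.41) and differed by -0.84 in NT-LW, where it was lower after scaling to a common sum. CTNND1 was lower by the rule in both (-1.08 and -1.18), as was OCLN (-1.08) in NT-D, but these 2 NT-D calls did not hold after median-ratio scaling. ITGB1 was lower in NT-LW (-1.71) and differed by -0.69 in NT-D.

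The 3 members higher in the NT-D 8-cell embryo, and 8 of the 9 higher in the NT-LW one, were of the early class in IV-D embryos. The exception was the late gene CDH2, N-cadherin, with 0.817 FPKM in IV-D, 1.30 in NT-D and 3.37 in NT-LW. The IV-D 8-cell library enters both the class and the comparison, so that this overlap is partly built in. The share of early genes among all genes of the table higher in the clones was not calculated. ITGAE differed by 2.52 in NT-D and 2.12 in NT-LW, LAMB1 by 1.43 and 1.14, and CLDN10 by 1.05 and 2.29, of which the NT-D value for CLDN10 was lost after scaling to a common sum. ITGA2 (1.30) and GJA10 (1.201) were higher in NT-LW and differed by -0.10 and -0.08 in NT-D. With a minimum of 5 FPKM in place of 1, the calls for CLDN4, KRT18 and LAMB1 in both groups, OCLN in NT-D and GJA10 in NT-LW fell away, since neither library reached it.

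**Figure D3:**
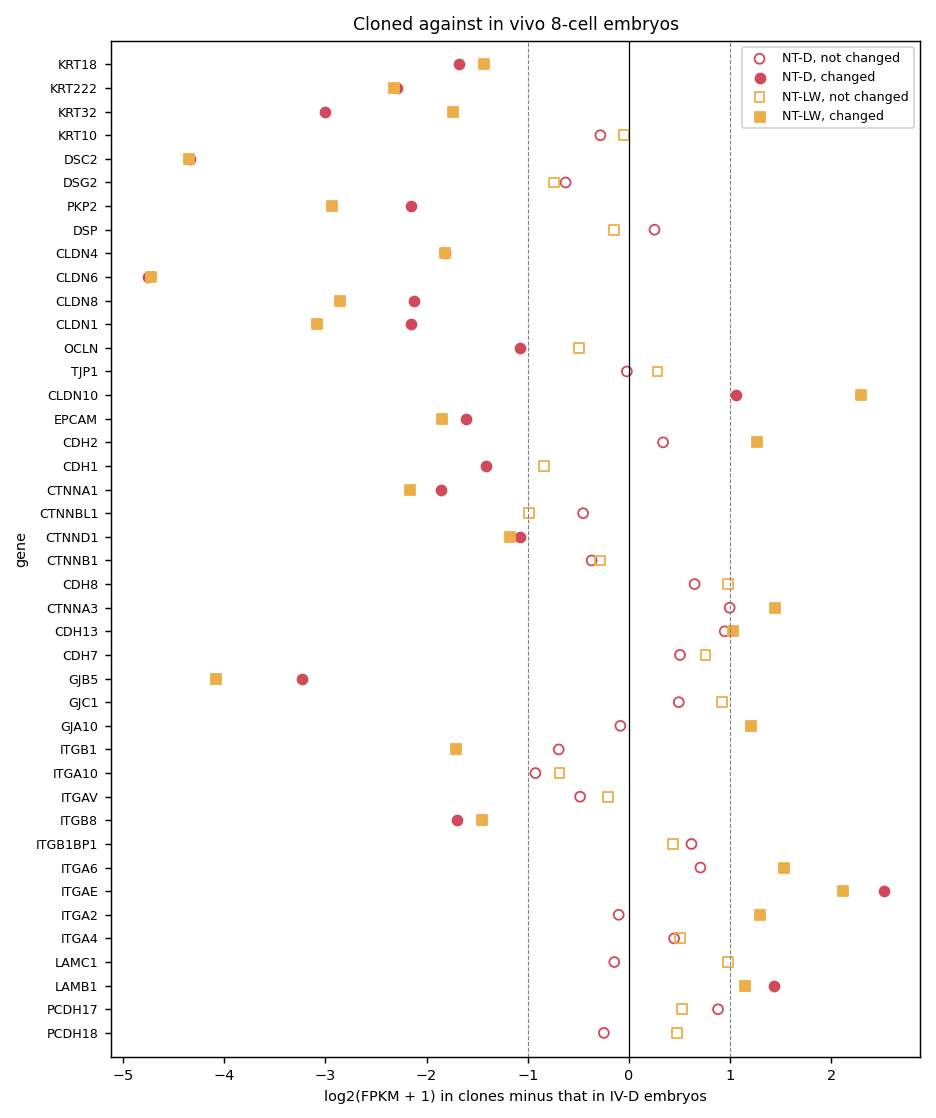
Difference in log2(FPKM + 1) between clone and IV-D 8-cell libraries for the members with 1 FPKM or more, circles for NT-D and squares for NT-LW, filled where the gene differed by more than 1 (dashed lines). Most filled points lie left of 0, down to CLDN6 and DSC2, and ITGAE, LAMB1 and CLDN10 are the members right of 0 with filled points in both groups.

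In the morula fewer members differed from IV-D than at the 8-cell stage. In NT-D 6 of 43 members were higher and 2 lower, beside 18.7% and 3.88% (4 and 4 after median-ratio scaling). ITGA2 (2.88) and GJC1 (1.52), both of the early class, were higher in NT-D, and DSC2 (-1.37) and KRT222 (-1.41) were lower. In NT-LW 4 of 41 were higher and 6 lower, beside 11.6% and 4.07%, with 0 and 9 after median-ratio scaling and 7 and 6 after scaling to a common sum. The NT-LW morula was lower in KRT18 (-3.70), KRT8 (-2.79), CLDN6 (-2.23), DSC2 (-2.21), CLDN4 (-1.68) and KRT32 (-1.25). In NT-D these 6 genes differed by 0.43, 0.18, -0.34, -1.37, -0.64 and -0.94. CLDN1 (1.25), ITGAV (1.17) and ITGA2 (1.09) were higher in NT-LW, but not after median-ratio scaling.

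In the IT part of the blastocyst 5 of 42 members were higher and 6 lower in NT-D, beside 9.47% and 15.4% (5 and 10 after scaling to a common sum), and 3 of 40 were higher and 9 lower in NT-LW, beside 8.7% and 13.7%. The connexin GJB5 (-2.45 and -2.47), CLDN4 (-1.75 and -1.89), KRT32 (-1.43 and -2.73) and KRT222 (-1.82 and -1.69) were lower in both clone groups. LAMC1 was higher in both (1.86 and 2.01), and DSG2 was higher in NT-D (1.23) and differed by -0.04 in NT-LW.

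In TE the share of members that differed from IV-D was lower than at the other stages compared, within each clone group. The margin was narrow, over the 2-cell stage in NT-D and over the morula in NT-LW. The NT-D counts also lay near the shares of the table, so this order cannot be read as particular to the members. In NT-D 0 of 36 were higher and 2 lower, beside 3.13% and 4.23% (1 and 2 after scaling to a common sum), and the 2 lower ones were DSG3 (-1.08) and ITGB6 (-1.74). In NT-LW 4 of 36 were higher and 4 lower, beside 6.26% and 10.2% (5 and 3 after median-ratio scaling). KRT18 (1.45) and CLDN1 (1.11) were higher in NT-LW TE, and KRT32 (-3.03) and CLDN6 (-1.09) were lower, the last not after median-ratio scaling. In NT-D TE these 4 genes differed by 0.66, -0.50, -0.97 and -0.32.

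Between the 2 parts of a blastocyst the members differed in IV-D embryos and hardly in clones. IV-D IT was higher than TE in 13 of 42 members and lower in 10, beside 18% and 9.83% of the table. NT-D IT was higher in 1 of 35 members, CLDN1, and lower in 0, beside 4.32% and 0.385% of the table. NT-LW IT was higher in 2 of 35, CDH2 and CTNNA3, and lower in 0, beside 5.07% and 1.18% (1 and 4 after median-ratio scaling). The low counts of members in the clones thus went with low counts over the whole table.

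Higher in IV-D IT than in TE were all 3 connexins with 1 FPKM or more, among them GJB5 (2.02) and GJC1 (1.05, not after median-ratio scaling), and CLDN1 (2.70), KRT222 (1.94), KRT10 (1.92) and CLDN4 (1.28). Lower in IT were 4 of 5 desmosomal genes, among them DSG2 (-1.41), PKP2 (-1.25) and DSP (-1.08), and LAMC1 (-2.48) and TJP3 (-1.86). CDH1 (-1.03) and OCLN (-1.001) were lower in IT by the rule, but not after scaling to a common sum. KRT8 and KRT18, which mark trophectoderm in many mammals, differed by 0.19 and 0.11 in IV-D, -0.74 and -0.78 in NT-D and -0.78 and -0.93 in NT-LW. The keratin pair therefore did not set TE apart from IT by this rule, except in NT-LW after median-ratio scaling, where KRT8 differed by -1.08 and KRT18 by -1.23.

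**Figure D4:**
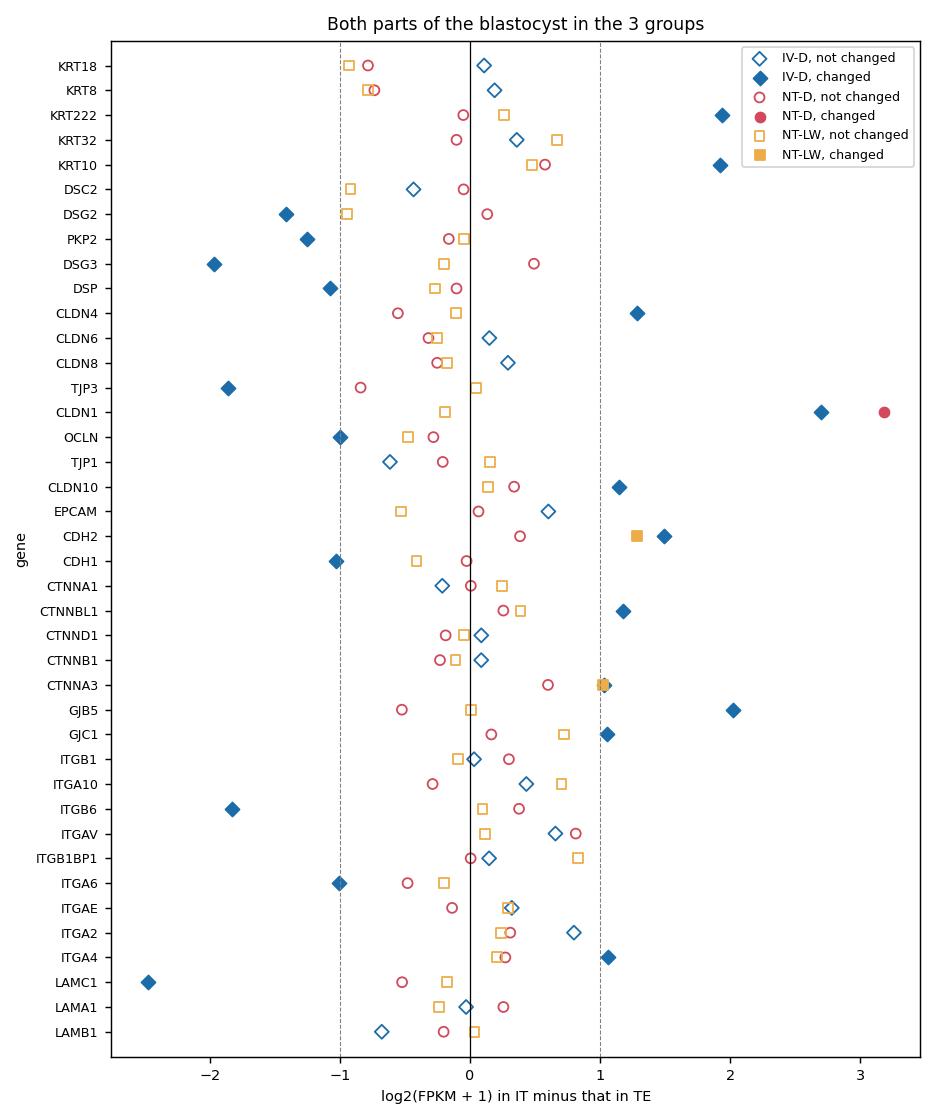
Difference in log2(FPKM + 1) of IT minus TE for members with 1 FPKM or more, diamonds for IV-D, circles for NT-D and squares for NT-LW, filled where the parts differed by more than 1. Filled diamonds spread from LAMC1 on the left to CLDN1 on the right, while the points of the clones gather around 0 apart from CLDN1 in NT-D and CDH2 and CTNNA3 in NT-LW.

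Other genes of junctions were taken from lists of known function. Of 29 genes of the junction plaque and cell polarity 18 were in the table, and their summed FPKM was 225 in the IV-D 8-cell embryo, 165 in NT-D and 153 in NT-LW. At that stage 6 of 16 were lower and 0 higher in NT-D, and 5 of 15 lower and 1 higher in NT-LW, beside the 17.4% and 17.3% of the table that were lower and the 10.8% and 16.3% that were higher there. JUP, plakoglobin, which serves both adherens junctions and desmosomes, was at 6.23 FPKM in IV-D and at 0.807 and 1.07 FPKM in the clones, and ezrin (EZR), which marks the outer face of polarized blastomeres, rose from 21.2 to 162 FPKM between the IV-D 8-cell embryo and morula. Of 26 genes of the integrin adhesion complex and basement membrane 14 were in the table, with 531 FPKM in the IV-D 8-cell embryo, 167 FPKM in NT-D and 188 FPKM in NT-LW. The tetraspanin CD9, a partner of integrins, made up most of this with 488, 137 and 148 FPKM. Of these genes 4 of 11 were lower in NT-D and 1 of 12 in NT-LW, beside the same shares of the table, the NT-LW count below its share. Of 15 fluid transport genes 6 were in the table, among them the water channel AQP3, at 45.6 FPKM in IV-D IT and 6.35 FPKM in TE, 7.62 and 9.79 FPKM in NT-D, and 7.17 and 9.51 FPKM in NT-LW. AQP9 and AQP11, the 2 with 1 FPKM or more at the 8-cell stage, were lower in both clones there.

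Marker lists give the state of each library beside these results. Trophectoderm markers (9 of 14 in the table) summed to 1614 FPKM in the IV-D 8-cell embryo, 445 FPKM in NT-D and 396 FPKM in NT-LW, most of it the sulfotransferase SULT1E1, with ELF3 listed at 0 in all 3 libraries. Of these 4 of 7 were lower in NT-D and 5 of 7 in NT-LW, beside 17.4% and 17.3% of the table. SULT1E1 went against its place on the list, with 0.177 FPKM in IV-D TE and 699 FPKM in IT. Without it, a choice made after its values were seen, the sums at the 8-cell stage were 141 FPKM in IV-D, 103 in NT-D and 109 in NT-LW. Oocyte markers (9 of 12) summed to 24.4, 205 and 265 FPKM at the 8-cell stage, with 6 of 8 higher in NT-D and 6 of 8 in NT-LW, beside 10.8% and 16.3% of the table, and to 8.46, 231 and 31.0 FPKM in the morula. Over all stages they ranged from 1.28 (TE) to 4378 FPKM (1-cell) in IV-D, from 1.15 to 3981 in NT-D and from 2.59 to 4146 in NT-LW, and in the TE of IV-D ZP2, BMP15 and OOEP were at 0. In the morula trophectoderm markers summed to 1774 FPKM in IV-D, 1499 in NT-D and 1425 in NT-LW, and without SULT1E1 to 713, 1077 and 439 FPKM. Oocyte transcripts thus stood higher in both clone 8-cell libraries, in which late members stood lower, and in the NT-D morula, in which ITGA2 and GJC1 stood higher, and their part in those results was not tested. In IT oocyte markers summed to 6.11 FPKM in IV-D, 3.38 in NT-D and 3.34 in NT-LW.

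Fibroblast markers (7 of 15) summed to 2.06, 32.1 and 30.7 FPKM at the 8-cell stage, with 3 of 4 and 4 of 5 higher in NT-D and NT-LW, beside 10.8% and 16.3% of the table. They ranged from 0.156 to 71.7 FPKM over the IV-D libraries, from 0.114 to 149.9 in NT-D and from 0.277 to 174 in NT-LW, and S100A4 and ACTA2 were at 0 in the IV-D 8-cell embryo. Their part in the 8-cell differences was not tested. Inner cell mass, epiblast and hypoblast markers (7 of 12) summed to 153 FPKM in IV-D IT and 26.5 FPKM in TE, 63.0 and 28.2 FPKM in NT-D, and 81.6 and 43.5 FPKM in NT-LW. IT was higher than TE in 5 of 6 of these in IV-D, 4 of 6 in NT-D and 4 of 6 in NT-LW, beside 18%, 4.32% and 5.07% of the table. IT thus stood above TE in most of these markers in each group, with a smaller distance between IT and TE in the clones, and its part in the small IT and TE differences of the members was not tested. Of cumulus and granulosa cell markers 3 of 11 were in the table, at 23.004, 30.1 and 39.4 FPKM at the 8-cell stage. The oviduct and uterine list had 1 of 10 genes, at 1.29, 2.29 and 1.26 FPKM there, and the leukocyte list 1 of 8, at 2.46, 0.690 and 0.651 FPKM, so that with 1 gene each these 2 lists could not check the libraries for such cells.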

How the data were processed

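Poly(A) RNA of 23 libraries (8 IV-D, 8 NT-D and 7 NT-LW, 1 per stage or blastocyst part) had been turned into cDNA with the SMART-Seq v4 kit and sequenced in pairs. Per the submitters' processing notes, HISAT2 2.0.4, HTSeq 0.9.1 and DESeq were used with the Sscrofa11.1 genome. The deposited table gives FPKM values that the authors calculated for 8603 genes, 7371 of them with a symbol, and 0 of its columns were left unused. Whole fragments were recovered from the steps of the FPKM values for 100% of genes, to within 4.97e-10 for genes over 1000 fragments, which gave a depth of 14952784 to 22991067 fragments per library (median 18896560). The recovery and the change rule were tested on simulated data. Whole fragments were recovered for 99.988% of genes, and 100% of 200 genes given an 8-fold change were called. For a gene well above 1 FPKM such a change exceeds the log2 cutoff of 1 by construction. The 100% therefore cannot tell how the rule treats weakly expressed genes or spread between pools of embryos.

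Members were matched by symbol, with the members and all gene lists chosen while earlier results of these data were known. A gene changed where log2(FPKM + 1) differed by more than 1 and at least 1 library reached 1 FPKM, computed over the whole table for 30 comparisons. With 1 library per group no p-value was calculated. Samples were grouped by their titles. Counts and sums cover all 59 members, while the values of some members are not reported here and plots show 56. Genes named in full were, for each of the 9 roles, the 4 with the highest FPKM if this was at least 10, and the 2 largest rises and falls with at least 10 FPKM in the main comparisons, while other members were named after their values were seen. Alternatives were a pseudocount of 0.1, a minimum of 5 FPKM, median-ratio scaling, scaling of each library to a sum of 1000000, an expression cutoff of 0.5 FPKM, and the fold rule joined to an exact binomial test of the recovered fragments, which compares libraries and not conditions (adjusted p under 0.005). Promoter sequences came from RefSeq for Sscrofa11.1, of 250 bases. Calculations ran in Python 3.11.15 with scipy 1.17.1, pandas 2.3.3 and numpy 2.4.6, and plots in matplotlib 3.10.9.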

Additional observations from a re-analysis of the deposited data

Results flagged for a closer look

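Of the named genes, CLDN1 moved in opposite directions between embryo groups at the same step. It fell by 2.75 on the log2 scale (a difference of -2.75) from the IV-D 8-cell embryo to the morula and rose by 1.58 at the same step in NT-LW, with 0.01 in NT-D. Each group has 1 library per stage, so this difference between groups was not tested.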

How the results depend on the processing

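No paired analysis was possible because each stage of each group has 1 library, and for the same reason no replicate could be left out. Of 150 counts of changed members recomputed under 5 alternatives, 132 stayed within 1.5 times the count in the report, all 30 with the fold rule joined to the exact binomial test among them, and the 23 counts of expressed members did so with a cutoff of 0.5 FPKM. The binomial test was applied only to genes that the fold rule had called, so it could remove calls and add none. Of 1320 differences of named genes, 1204 kept their call, 116 lost it (55 after median-ratio scaling, 50 with a minimum of 5 FPKM and 11 after scaling to a sum of 1000000) and 0 reversed. Of 465 differences of named genes that were not called, 56 were called after median-ratio scaling, 38 after scaling to a sum of 1000000, 51 with a pseudocount of 0.1 and 0 with a minimum of 5 FPKM. By construction a pseudocount of 0.1 can lose no call, so that its 330 kept calls were fixed in advance. A minimum of 5 FPKM can add none, and neither of these settings can reverse a call. A called difference needs levels further apart than the scaling factors of any pair of libraries compared here. Neither scaling could therefore reverse a call, and the 0 reversals were fixed in advance. Median-ratio scaling moved the median of all genes by up to 0.77 log2 units (by over 0.1 in 23 of 30 comparisons) and scaling to a sum of 1000000 by up to 0.39 (in 21), so that most directions hold only relative to such a shift. The cause of the following moves was not tested beyond what each setting does by construction.

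With a pseudocount of 0.1 the changed members went from 7 to 11 for IV-D 1-cell against oocyte, from 8 to 13 for IV-D IT against morula, from 1 to 2 for NT-D IT against TE, and, with NT-D set against IV-D, from 3 to 5 in 2-cell embryos, 8 to 14 in the morula and 2 to 5 in TE. With a minimum of 5 FPKM, under which fewer genes could be called, they went from 37 to 23 for IV-D 8-cell against 4-cell, 21 to 10 for NT-D IT and 24 to 15 for NT-D TE against morula, 23 to 14 for IV-D and 2 to 0 for NT-LW IT against TE, 8 to 4, 11 to 5 and 2 to 0 for NT-D against IV-D in morula, IT and TE, and 26 to 17 and 8 to 5 for NT-LW against IV-D at the 8-cell stage and in TE. Scaling to a sum of 1000000 gave 5 in place of 3 for 2-cell NT-D against 2-cell IV-D embryos, and median-ratio scaling 5 for NT-LW IT against TE in place of 2.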
